A study of Mus musculus with 32 samples.

Results

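The branched-chain amino acid breakdown genes described here are Bcat2, Bckdha, Bckdhb, Dbt, Bckdk, Ivd, Mccc1, Mccc2, Pcca and Pccb. These 10 genes, of 51510 in all, were taken by name, not by a threshold on a measured value. The libraries come from liver, heart, skeletal muscle and brown adipose tissue (BAT) of C57BL/6J males that were wild-type (WT) or SMIM30 knockout, labelled Mut. The 8 groups are WT and Mut of each of the 4 tissues, with 4 libraries each from individual mice, no treatment named, and tissue kept in liquid nitrogen. The knockout allele, the ages, the muscle and heart chamber sampled, and whether 1 mouse gave several tissues were not given in the sources used here. Levels are in TPM, which is a length-corrected share of a library's RNA with a fixed sum, so a gene's TPM also moves when other genes of that library move.

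Leucine, isoleucine and valine share the first steps of their breakdown in mitochondria. Bcat2, the mitochondrial aminotransferase, takes off the amino group and leaves branched-chain keto acids. The branched-chain keto acid dehydrogenase complex then commits the carbon to breakdown. Bckdha and Bckdhb encode the alpha and beta subunits of its E1 decarboxylase, Dbt encodes its E2 core, and its E3 subunit, Dld, is shared with other dehydrogenases. Bckdk is the kinase that phosphorylates E1 alpha and switches the complex off. Downstream, Ivd (isovaleryl-CoA dehydrogenase) and the biotin enzyme 3-methylcrotonyl-CoA carboxylase, made of Mccc1 and Mccc2, serve leucine. Pcca and Pccb form propionyl-CoA carboxylase, also a biotin enzyme, which takes up the propionyl-CoA from isoleucine and valine. In textbook physiology the liver is poor in the aminotransferase and rich in dehydrogenase activity, skeletal muscle is the reverse, and brown fat burns these amino acids during heat production.

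On the mouse build GRCm38 the genes lie on 6 chromosomes. Bcat2 (chr7:45570153-45589711), Bckdha (chr7:25629946-25658981) and Bckdk (chr7:127904082-127910221) are on chromosome 7, and Bckdhb (chr9:83925145-84124240) and Pccb (chr9:100982032-101034898) on chromosome 9. Dbt (chr3:116513070-116549981) and Mccc1 (chr3:35959312-36000678) are on chromosome 3. Ivd lies at chr2:118861954-118882909, Mccc2 at chr13:99948530-100015639 and Pcca at chr14:122534324-122891100. All 10 reached 1 TPM in every library and were tested in every comparison.

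Each library had 11480 to 12431 genes at 1 TPM or more. TPM keeps no read totals, so depth is unknown and precision was read from the spread between libraries. Markers of brown adipocytes, heart muscle, hepatocytes and fast muscle were highest in the tissues the labels name. Mitochondrially encoded RNA took 35.5% to 37.7% of the TPM in WT BAT, 41.2% to 43.7% in WT heart, 10.1% to 13.9% in WT liver and 24.3% to 28.7% in WT muscle, and reached 54.5% in Mut heart library 2. Smim30 RNA was still present in the libraries labelled Mut. All Mut values were under all WT values in heart (17.8 to 27.4 against 32.7 to 37.6 TPM) and muscle (24.3 to 27.3 against 32.9 to 35.7 TPM), and the groups overlapped in BAT and liver.

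The aminotransferase showed a change of transcript between tissues that its gene total hides, so its transcripts are given first. A pair of annotated protein-coding models start at different first exons that share 0 bases. The long form (ENSMUST00000033098, chr7:45570153-45589711) opens with the exon 45570153 to 45570399, and its start codon at 45570376 lies in exon 1. The short form (ENSMUST00000209204, chr7:45570996-45589710) opens with the exon 45570996 to 45571552, and its start codon at 45575820 lies in exon 3. The annotated coding sequence has 393 codons in the long form and 353 in the short form, which lacks the first 40. The stretch below is the spliced coding strand of the long form from 1 start codon to the other (GRCm38, chr7:45570376-45575822, plus strand), shown because it is what the models do not share as coding sequence. The capitals mark the start codon of the long form and, at the end, that of the short form.
Bcat2 coding start: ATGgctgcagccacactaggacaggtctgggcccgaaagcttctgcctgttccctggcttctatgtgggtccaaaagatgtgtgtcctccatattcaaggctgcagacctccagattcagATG

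The long form averaged 43.8 TPM in WT BAT, 45.6 TPM in WT heart and 31.8 TPM in WT muscle (n = 4 each). These were 96.8%, 93.3% and 90.1% of the gene's TPM. In WT liver it averaged 0.129 TPM, 0.408% of the gene, and no liver library of either genotype exceeded 0.378 TPM. The liver signal lay instead on the short form, at 12.7, 13.7, 17.6 and 14.2 TPM in the WT libraries, and on the retained-intron model ENSMUST00000209543, at 6.26 to 15.7 TPM. The short form made up 50.3%, this model 37.3% and another retained-intron model, ENSMUST00000209569, 11.2% of the WT liver total. Liver thus held almost none of the transcript that made up nearly all of the gene's TPM in the other tissues, and the groups did not overlap. Counted over the long form alone, the WT log2 difference was 5.32 for BAT minus liver, 5.37 for heart minus liver and -4.87 for liver minus muscle, on the log2(TPM + 1) scale and under a setting added after the data were seen. An antisense gene, 0610005C13Rik (chr7:45567794-45575327, minus strand), overlaps the start of Bcat2. It read 155.6 to 207 TPM in the liver libraries and 1.72 to 4.08 TPM in the others. Its exons share 247 bases with the long form, 197 with the short form, and 106 and 50 with the retained-intron models. The libraries are strand-specific per the labels, but Salmon's strand setting was not given in the sources used here, so the part of antisense reads in the liver value of Bcat2 was not tested.

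**Figure D1:**
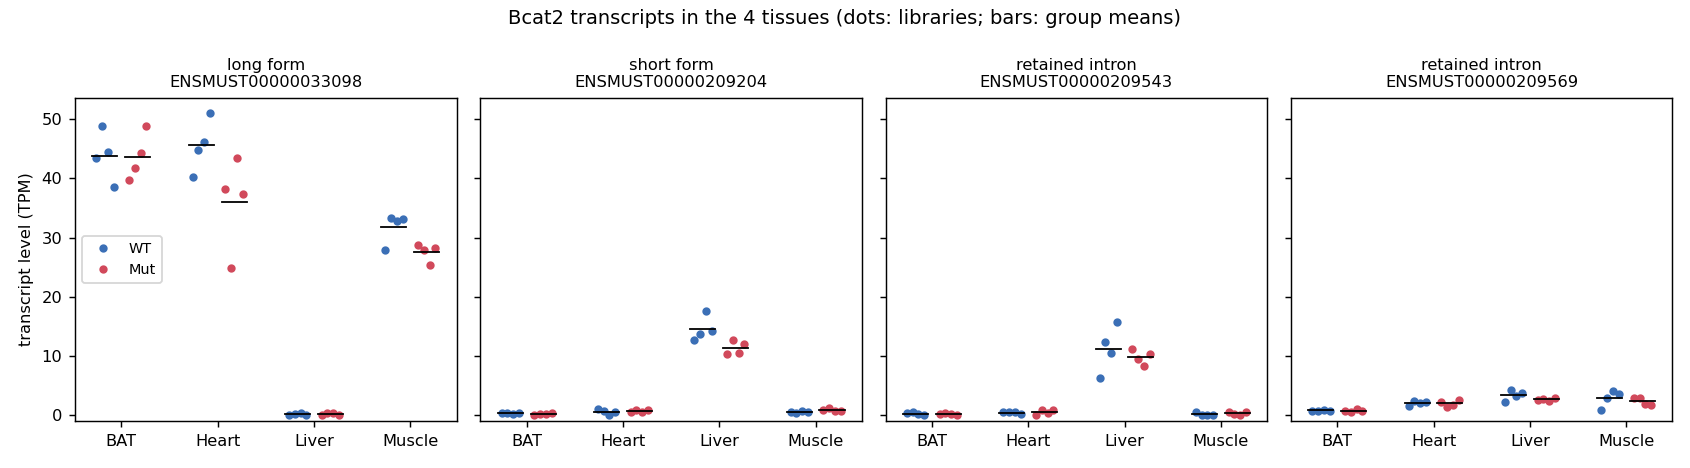
TPM of the Bcat2 transcripts in the 32 libraries (vertical axis, TPM) by tissue and genotype, 1 point per library. The long form carries the signal in BAT, heart and muscle and stays at or under 0.378 TPM in liver, where the short form and a retained-intron model carry it.

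The 250 bases before the RefSeq start of the long form of Bcat2 are shown because they precede the start of the transcript that is near 0 in liver (GRCm38.p6, chr7:45569903-45570152, plus strand). Below it stand the same windows of Bckdhb (chr9:83924887-83925136, plus strand) and Bckdk (chr7:127903823-127904072, plus strand), a pair whose levels ran in opposite directions between liver and muscle. The Bckdk window precedes a start at 127904073. The transcript ENSMUST00000124533, which held a large part of Bckdk's TPM, starts further on, at 127904762. Capitals mark letters of a motif searched on both strands: TCAAGGTCA (an estrogen-related receptor site), AGGTCA (a nuclear receptor site part, contained in the former), CACGTG (an E-box), GGGCGG (a GC box) and CACCC (a Kruppel-like factor site).
Bcat2: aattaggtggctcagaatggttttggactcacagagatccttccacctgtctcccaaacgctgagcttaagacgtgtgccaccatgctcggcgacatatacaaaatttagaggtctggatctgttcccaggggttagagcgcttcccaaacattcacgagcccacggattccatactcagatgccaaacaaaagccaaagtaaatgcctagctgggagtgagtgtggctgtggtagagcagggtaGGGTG
Bckdhb: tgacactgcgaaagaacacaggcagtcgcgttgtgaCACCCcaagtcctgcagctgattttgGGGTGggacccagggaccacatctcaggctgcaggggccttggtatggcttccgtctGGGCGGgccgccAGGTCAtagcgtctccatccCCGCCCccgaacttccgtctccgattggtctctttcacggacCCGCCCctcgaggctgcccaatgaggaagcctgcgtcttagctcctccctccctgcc
Bckdk: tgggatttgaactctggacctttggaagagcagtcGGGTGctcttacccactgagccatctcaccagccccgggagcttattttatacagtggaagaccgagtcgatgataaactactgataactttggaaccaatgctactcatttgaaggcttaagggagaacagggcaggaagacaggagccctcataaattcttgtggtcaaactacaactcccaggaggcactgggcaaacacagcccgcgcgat

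RefSeq gave 12 such windows for 9 of the 10 genes (some have more than 1 start). Of the 12, CACCC was in 7, GGGCGG in 3, AGGTCA in 2, CACGTG in 1 and TCAAGGTCA in 0. Over 32851 windows of the same length these motifs were in 52%, 32.7%, 14%, 6.02% and 0.387%. The letters describe these windows only and do not show binding.

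The question of how the pathway is distributed over tissues was first asked in WT mice. Bckdha, E1 alpha, read 329, 352, 316 and 301 TPM in the BAT libraries and 172, 195, 199 and 182 TPM in liver. It read 127, 140.1, 148 and 167 TPM in heart and 79.1, 102, 96.7 and 95.9 TPM in muscle. The BAT libraries were all above the liver libraries, these above heart, and these above muscle. All 6 tissue differences of Bckdha passed the limma test (adjusted p under 0.05), the widest being BAT minus muscle at a log2 difference of 1.79 (SE 0.09, adjusted p = 1.05e-11).

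Bckdhb, E1 beta, kept the same order. On the log2 scale its step from BAT to liver was narrower, and those from liver to heart and heart to muscle were wider. It read 105, 114, 112 and 102 TPM in BAT, 86.9, 85.7, 89.7 and 87.0 TPM in liver, 31.2, 36.3, 36.5 and 42.0 TPM in heart, and 18.5, 22.5, 20.6 and 21.8 TPM in muscle. No groups overlapped and all 6 differences passed, with 2.32 for BAT minus muscle (SE 0.08, adjusted p = 5.92e-14) and 2.02 for liver minus muscle. Dbt, the E2 core, was highest in liver (45.2, 50.8, 50.9 and 62.5 TPM) and BAT (43.5, 48.2, 46.2 and 46.7 TPM), which did not pass against each other (BAT minus liver -0.17, SE 0.10, adjusted p = 0.142). Heart Dbt (23.3, 23.8, 26.2 and 28.2 TPM) and muscle Dbt (14.8, 19.5, 18.9 and 18.1 TPM) lay below both. Mean Dbt was 2.94-fold higher in liver than in muscle (adjusted p = 2.22e-10).

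Against the E1 subunits, the kinase Bckdk ran the other way between liver and muscle, but like them it was higher in BAT than in heart and liver. It read 101, 116, 104 and 112 TPM in muscle, 61.5, 63.7, 80.0 and 85.0 TPM in BAT, 38.5, 47.8, 47.6 and 57.1 TPM in heart, and 10.0, 9.33, 11.3 and 11.0 TPM in liver. Every muscle library was above every other library, and every liver library below. Mean muscle Bckdk was 10.4-fold the mean of liver, the largest difference of any of the 10 genes between WT tissues (liver minus muscle -3.26, SE 0.12, adjusted p = 2.93e-14). All 6 differences of Bckdk passed. Several transcripts made up the gene: ENSMUST00000124533 held 69.3% of its TPM in WT BAT, 56.9% in heart, 68.0% in liver and 46.8% in muscle, and ENSMUST00000151451 held 23.5% in muscle against 5.77% in liver, shares that were not tested.

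Over all its transcripts Bcat2, which acts before the complex, varied less. It read 45.1, 50.5, 45.9 and 39.6 TPM in WT BAT, 43.3, 48.6, 49.3 and 54.2 TPM in heart, 29.8, 36.4, 37.6 and 37.5 TPM in muscle, and 21.4, 30.9, 31.8 and 33.6 TPM in liver. BAT and heart overlapped and did not pass against each other (-0.11, SE 0.12, adjusted p = 0.475), nor did liver and muscle (-0.27, adjusted p = 0.0546). The other 4 differences passed, none at 2-fold. With protein-coding transcripts only, BAT minus liver was 1.53, heart minus liver 1.60 and liver minus muscle -1.09, and each passed at 2-fold.

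Ivd, the leucine dehydrogenase, was high in heart and liver. It read 98.9, 133, 135 and 162 TPM in WT heart, 111, 129, 132 and 139.8 TPM in liver, 80.0, 84.3, 77.8 and 73.6 TPM in BAT, and 49.6, 76.9, 76.6 and 78.3 TPM in muscle. Heart and liver overlapped (heart minus liver 0.028, SE 0.15, adjusted p = 0.864), as did BAT and muscle (BAT minus muscle 0.19, adjusted p = 0.261). The 4 differences between these pairs passed: BAT minus heart was -0.72, BAT minus liver -0.69, heart minus muscle 0.90 and liver minus muscle 0.87.

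The carboxylase subunits that serve leucine were both highest in BAT and lowest in muscle, but not in the same order between. Mccc1, the biotin-carrying alpha subunit, averaged 79.0 ± 4.44 TPM in WT BAT, 47.9 ± 5.25 in heart, 30.0 ± 3.04 in liver and 22.9 ± 2.81 in muscle (SD, n = 4). Mccc2, the beta subunit, averaged 62.2 ± 5.34 TPM in BAT, 50.3 ± 2.30 in liver, 36.5 ± 3.42 in heart and 21.7 ± 2.30 in muscle. As deposited, liver and heart stood in opposite order for the partners: heart minus liver was 0.66 for Mccc1 (SE 0.10, adjusted p = 1.06e-05) and -0.46 for Mccc2 (SE 0.09, adjusted p = 0.000157). This depends on scaling: rescaled without mitochondrial genes and the 10 most abundant genes, both were higher in heart (Mccc1 1.49, Mccc2 0.39). All 6 differences passed for each.

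Propionyl-CoA carboxylase was the pair most skewed to BAT. Pccb, its beta subunit, read 244, 246, 239.8 and 244 TPM in WT BAT, 99.9, 121, 111 and 119 TPM in liver, 44.8, 53.9, 53.1 and 62.7 TPM in heart and 47.0, 53.1, 57.3 and 53.6 TPM in muscle. Pcca, its alpha subunit, read 137, 144, 153 and 143 TPM in BAT and averaged 47.0 ± 6.82 TPM in liver, 36.9 ± 3.69 in heart and 34.5 ± 2.08 in muscle (SD, n = 4). Heart and muscle did not pass against each other for Pcca (0.088, SE 0.10, adjusted p = 0.438) or Pccb (0.016, SE 0.09, adjusted p = 0.889). BAT minus muscle was 2.03 for Pcca and 2.19 for Pccb. The gene Ggact overlaps Pcca on the opposite strand and read 10.1 to 101 TPM, and its part in the value of Pcca was not tested.

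**Figure D2:**
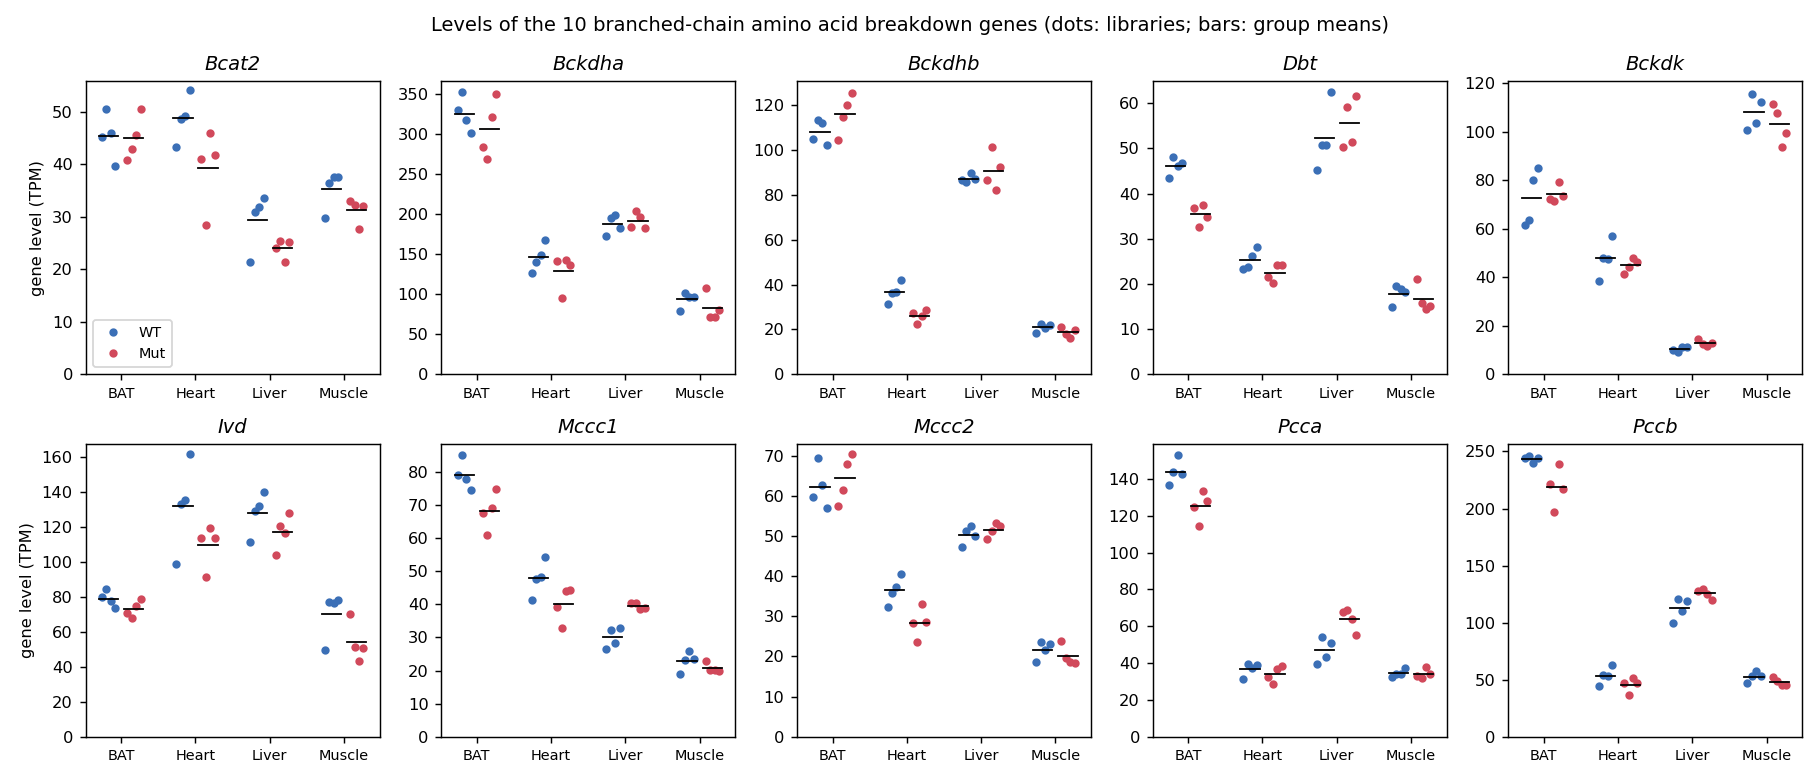
TPM of the 10 genes (vertical axes, TPM) in WT and Mut libraries of BAT, heart, liver and muscle, 1 point per library with the group mean. The highest WT mean is in BAT for 6 genes, and Bckdk is the one gene highest in muscle and lowest in liver.

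Counted together, 6 genes had their highest WT mean in BAT (Bckdha, Bckdhb, Mccc1, Mccc2, Pcca and Pccb), 2 in heart (Bcat2 and Ivd), 1 in liver (Dbt) and 1 in muscle (Bckdk). The lowest WT mean was in muscle for 8 and in liver for Bckdk and Bcat2. How all genes divide by highest or lowest tissue was not counted, so these counts have no background beside them. Of the 60 WT tissue differences (10 genes over 6 pairs of tissues) 53 passed, against 72.2% of all genes and pairs, and 26 were also at least 2-fold, against 31.5%. At the 2-fold rule 7 genes were higher in BAT than in muscle (17% of all genes) and 0 lower (13.5%). Against heart, 4 were higher in BAT (11.7%) and 0 lower (9.72%), and against liver 4 were higher (15.5%) and 0 lower (18%). In liver 4 genes were higher than in muscle (24.8%) and Bckdk lower (18.5%). Heart exceeded liver in Bckdk (17.6%) and was lower in Bckdhb, Dbt and Pccb (23.8%), and against muscle it was higher in Mccc1 (8.84%) and lower in Bckdk (10.2%). Median log2 differences of the 10 genes were 0.80 for BAT minus heart, 0.71 for BAT minus liver and 1.62 for BAT minus muscle, beside 0.13, -0.014 and 0.084 over all genes.

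The liver comparisons depend on what TPM is taken relative to. Rescaling each library without mitochondrial genes and the 10 most abundant genes moved the median of all genes from -0.014 to 0.58 for BAT minus liver and from -0.18 to 0.52 for heart minus liver. Under it 5 called differences changed sign: Ivd (0.060) for BAT minus liver, Bckdha (0.49), Mccc2 (0.39) and Pcca (0.50) for heart minus liver, and Mccc1 (-0.021) for liver minus muscle. The difference of Dbt for BAT minus liver, not called as deposited, also changed sign (0.57). Of the 26 differences of at least 2-fold, 21 were higher and 5 lower in the first tissue named. The split was 29 and 1 with this rescaling, and 19 and 3 with median-ratio scaling. Bckdk remained lower in liver than in the other tissues under each scaling.

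Set against other nuclear transcripts for mitochondrial proteins, which do not measure mitochondrial content, the order was different. A reference of 15 nuclear genes for the citric acid cycle and respiratory chain had a geometric mean of 1038 TPM in WT BAT, 711 in heart, 568 in muscle and 214 in liver. Relative to it, 9 of the 10 genes were highest in liver and Bckdk was highest in muscle. Bcat2 is among the 9 with its retained-intron models counted in, which held a large part of its liver TPM. Its rank over protein-coding transcripts only is not given here. The reference was lowest in liver, so a gene of equal TPM in all tissues would also rank highest there. The share of all genes that do so was not counted. Bckdha stood at 87.5% of the reference in WT liver, 31.3% in BAT, 20.4% in heart and 16.4% in muscle. Dbt stood at 24.5%, 4.44%, 3.57% and 3.13% in the same order, and Ivd at 59.8%, 7.61%, 18.4% and 12.3%. Bckdk stood at 19.1% in muscle, 6.98% in BAT, 6.68% in heart and 4.89% in liver. These shares are ratios of TPM within a library, which rescaling a library leaves as they are, and they were not tested. In bulk tissue, fewer cells of a type and less RNA per cell cannot be told apart.

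**Figure D3:**
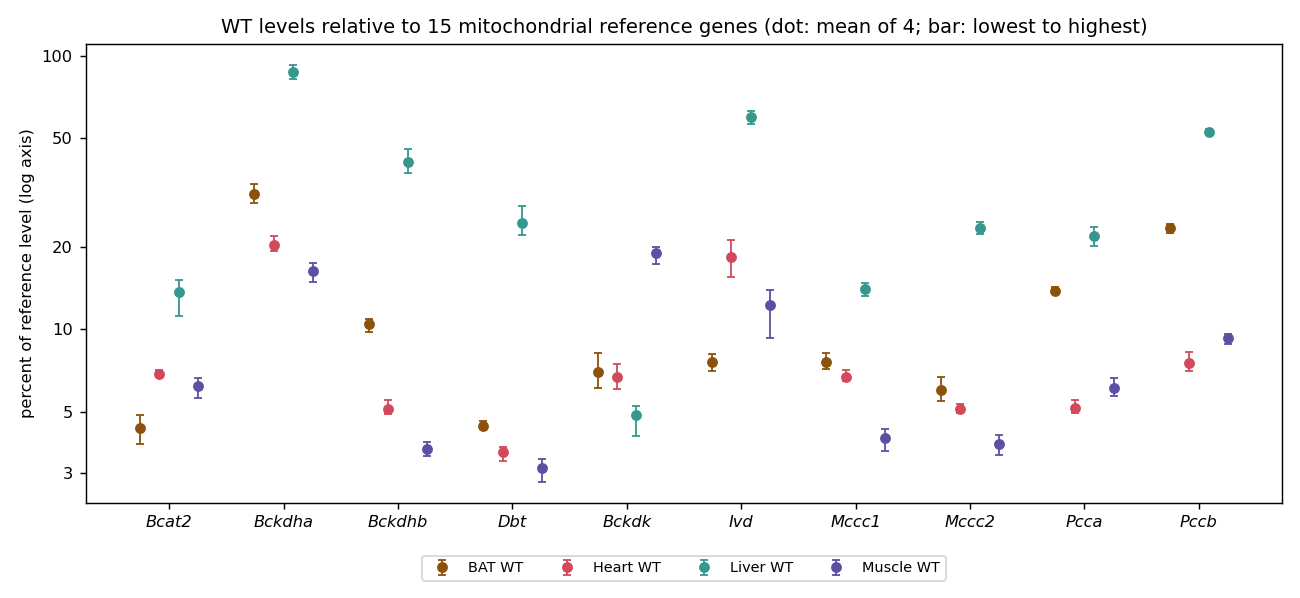
WT mean of each gene as a percentage of the geometric mean TPM of 15 mitochondrial reference genes (vertical axis, log scale) in the 4 tissues. By this measure 9 of the 10 genes are highest in liver, where the reference itself is lowest, and Bckdk is highest in muscle. Bcat2 is shown with its retained-intron models counted in.

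Ratios between partners of 1 enzyme do not depend on the scaling of a library. The kinase to E1 alpha ratio, Bckdk to Bckdha, was 1.07 to 1.27 in the WT muscle libraries, 0.304 to 0.342 in heart, 0.181 to 0.282 in BAT and 0.0479 to 0.0603 in liver. No tissues overlapped. Muscle was the tissue with more kinase than substrate transcript. The E1 alpha to E1 beta ratio, Bckdha to Bckdhb, averaged 4.47 in WT muscle, 3.99 in heart, 3.00 in BAT and 2.14 in liver, so the subunits of E1 were not in a fixed RNA ratio. Dbt to Bckdha averaged 0.281 in liver, 0.191 in muscle, 0.175 in heart and 0.143 in BAT. Mccc1 to Mccc2 was below 1 in liver (0.596) and above it in heart (1.31), BAT (1.27) and muscle (1.06). Pcca to Pccb averaged 0.415 in liver, 0.591 in BAT, 0.656 in muscle and 0.691 in heart. Bcat2 to Bckdha averaged 0.379 in muscle, 0.336 in heart, 0.157 in liver and 0.139 in BAT, with the retained-intron models of Bcat2 counted in. The 6 ratios over 6 pairs of tissues gave 36 exact permutation tests of the log2 ratio (two-sided), of which 31 reached the smallest p that 4 against 4 libraries allow, p = 0.0286 (adjusted p = 0.0332 over the 36). The 5 that did not were Pcca to Pccb between BAT and heart, BAT and muscle, and heart and muscle, Mccc1 to Mccc2 between BAT and heart, and Bcat2 to Bckdha between BAT and liver (exact permutation, adjusted p = 0.0623 to 0.343). How often ratios of other gene pairs reach that smallest p between tissues was not counted, so the 31 have no background beside them. Several of the ratios share Bckdha, so the tests are not independent.

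**Figure D4:**
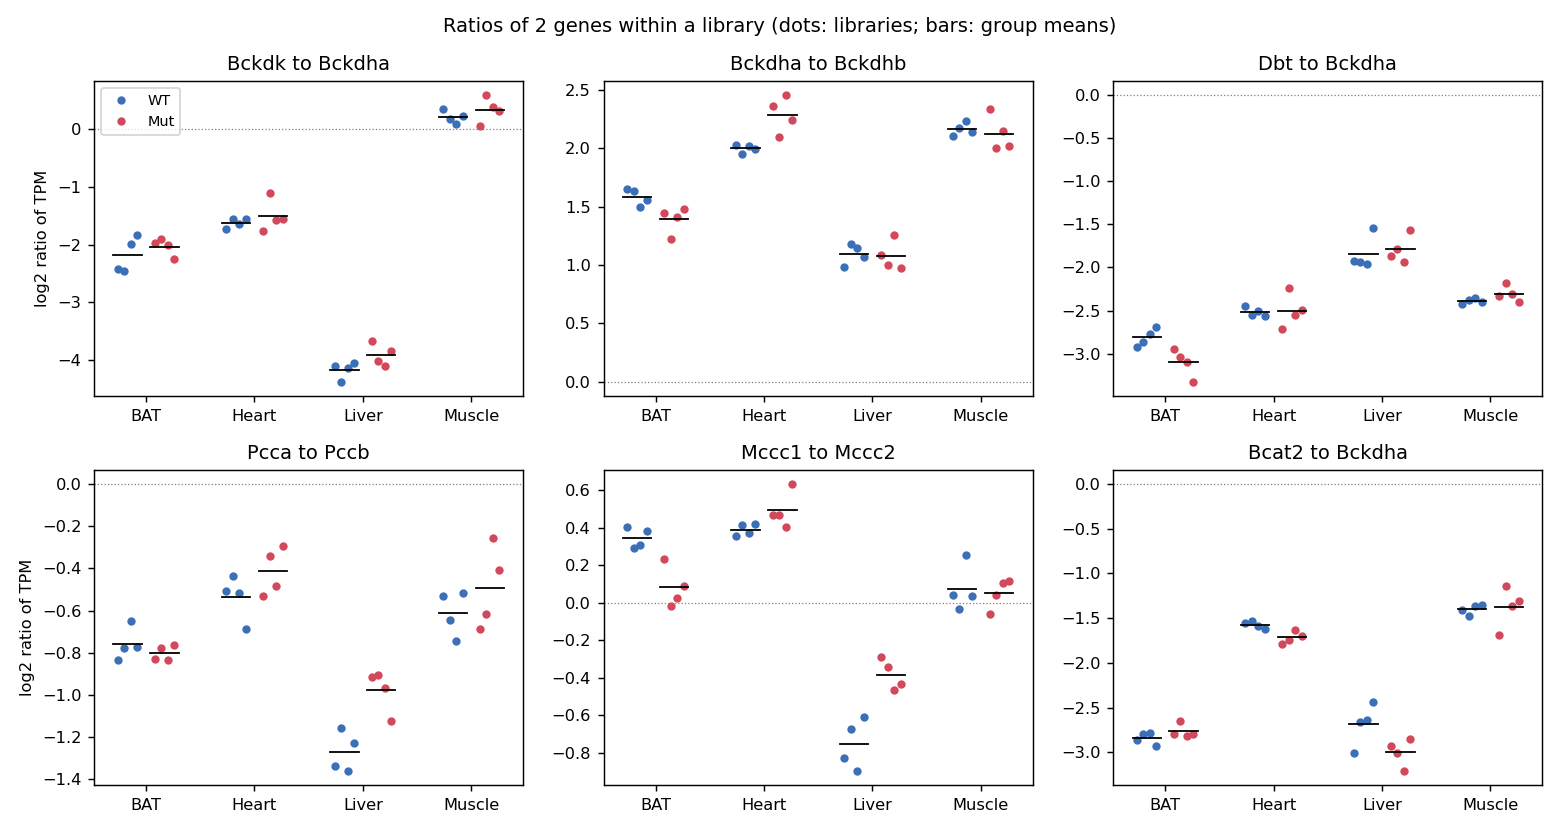
Log2 of the TPM ratios within the pathway (vertical axes, log2 ratio) by tissue and genotype, 1 point per library with the group mean. As plain ratios before the log2, Bckdk to Bckdha lies at 1.07 to 1.27 in WT muscle and at 0.0479 to 0.0603 in WT liver, with heart and BAT between.

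The tissue pattern was then read in the Mut libraries, which share no library with the WT comparison. There 26 of 60 differences were at least 2-fold and passed, against 33.1% over all genes and pairs. Of them 22 were also called in WT in the same direction, 84.6% of each list, where over all genes tested in both genotypes 90.2% of the WT calls and 85.8% of the Mut calls were shared. The sign was the same in 56 of 60 differences (93.3%), against 89.9% over all genes. Mut muscle again had the highest kinase to E1 alpha ratio, at a mean of 1.28, and Mut liver the lowest, at 0.0671.

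The rest of the pathway, a list of 32 transport, regulatory and downstream genes chosen with earlier results of these data known, was counted in the same way. In WT 30 of them were tested between tissues. In BAT 15 were at least 2-fold higher than in muscle (17% of all genes) and 2 lower (13.5%). Against heart the counts were 10 (11.7%) and 2 (9.72%), and against liver 10 (15.5%) and 7 (18%). Slc25a44, the mitochondrial carrier of branched-chain amino acids, averaged 29.1 TPM in liver, 25.8 in BAT, 11.5 in muscle and 6.00 in heart. Dld, the shared E3 subunit, averaged 377 TPM in BAT, 181 in heart, 174 in muscle and 84.2 in liver. Ppm1k, the phosphatase that reverses the kinase, averaged 31.7 TPM in liver and 27.4 in heart against 7.24 in muscle and 5.43 in BAT. The WT log2 difference of Ppm1k was 1.99 for liver minus muscle and -2.34 for BAT minus liver, so that phosphatase and kinase stood in opposite order between liver and muscle. Bcat1, the cytosolic aminotransferase, averaged 2.04 TPM in BAT and less than 1 TPM elsewhere. Klf15, a transcription factor known to act on this pathway, averaged 106 TPM in liver, 29.6 in muscle, 28.4 in heart and 13.9 in BAT.

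Likeness of pattern was described by Pearson's r of log2 values over the 32 libraries, among 12816 genes. The libraries fall into 4 tissues that set most of each r, so no p is given. The gene most like Mccc2 was Bckdhb (r = 0.978). Bckdha was most like Echs1 (0.989), Dbt like Ppara (0.979), Pcca like Apmap (0.988), Pccb like Eno1 (0.992, a gene with near-identical copies that can share reads), Bckdk like Isca1 (0.988) and Mccc1 like Adra1a (0.974). Bcat2 was most like Cox7a2l (0.959), Ivd like Cds2 (0.911) and Bckdhb like Fcgrt (0.984). Partners were not each other's closest gene: Pccb to Pcca had r = 0.958, and Bckdha to Bckdhb 0.938. The kinase was negatively related to Ivd (-0.72), Dbt (-0.71), Bckdhb (-0.47) and Mccc2 (-0.44), and less so to Bckdha (-0.25) and Pccb (-0.19). Its r was 0.0034 with Mccc1, 0.030 with Pcca and 0.54 with Bcat2.

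The knockout line was compared with WT within each tissue. In liver, 1 of the 10 genes passed, against 4.16% of 11994 genes, or 3.78% in the same direction. The share over all genes was unstable: 499 genes passed (453 higher and 46 lower), 22 without WT library 3, 32 without Mut library 1, and 148 higher and 159 lower with median-ratio scaling. Mccc1 read 26.6, 32.2, 28.3 and 32.9 TPM in the WT liver libraries and 40.3, 40.4, 38.6 and 38.8 TPM in the Mut libraries. All 4 Mut libraries were above all 4 WT libraries. The log2 fold change was 0.39 (SE 0.08, 95% interval 0.21 to 0.58, adjusted p = 0.0378), and the adjusted p was 0.0725 with no filter. With median-ratio scaling the value was 0.26 (adjusted p = 0.0804). The adjusted p ranged from 0.00814 to 0.108 over 18 settings and passed in 8. The call was lost without WT library 1, 3 or 4 or any one of the 4 Mut libraries.

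Pcca read 39.6, 54.4, 43.1 and 50.9 TPM in WT liver and 67.6, 69.1, 64.2 and 55.1 TPM in Mut liver, without overlap. Its log2 fold change of 0.44 (SE 0.12) did not pass (adjusted p = 0.0607, range 0.00375 to 0.163), and it passed in 1 fit over all libraries. Bckdk read 10.0, 9.33, 11.3 and 11.0 TPM in WT liver and 14.4, 12.6, 11.5 and 12.6 TPM in Mut liver, also without overlap (0.27, SE 0.09, adjusted p = 0.109). These 3 genes, the same that had an unadjusted p under 0.05 in liver (25.9% of all genes), had all Mut above all WT libraries, as did 14.3% of all genes. The log2 fold change of their partners was 0.035 for Mccc2 (SE 0.07) and 0.16 for Pccb (SE 0.08, adjusted p = 0.253). The total of Bcat2 in liver was -0.27 (adjusted p = 0.246), and without WT library 1 it was -0.41 and passed (adjusted p = 0.0474, highest 0.425 over 17 settings). Its short form read 12.7, 13.7, 17.6 and 14.2 TPM in WT liver and 10.3, 12.6, 10.4 and 12.0 TPM in Mut liver, and was not tested. The Mut values were under all WT values of this transcript. The median log2 fold change of the 10 genes was 0.070 and that of all liver genes 0.099. Summed macrophage markers were 62.4 to 170 TPM in Mut liver and 25.7 to 94.3 TPM in WT liver, with 1 of 5 called higher. Fibroblast markers were 115 to 177 TPM in Mut and 89.4 to 126 TPM in WT liver, with 2 of 4 called higher. Hepatocyte markers were 74330 to 95543 TPM in Mut against 83578 to 96528 TPM in WT, with 0 of 5 positive and 0 called. No marker of these lists was at 0. The part of these cells in the liver results was not tested.

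In BAT 0 of the 10 genes passed in limma, and 0% of 12150 genes did so, while 3 of the 10 had an unadjusted p under 0.05 (Dbt, Mccc1 and Pcca), against 19.5% of all genes. Dbt read 43.5, 48.2, 46.2 and 46.7 TPM in WT BAT and 36.9, 32.6, 37.5 and 34.8 TPM in Mut BAT. All 4 Mut libraries were below all 4 WT libraries. Its log2 fold change was -0.37 (SE 0.07, 95% interval -0.53 to -0.21, adjusted p = 0.106), and the adjusted p ranged from 0.0344 (without WT library 3) to 0.246 over 19 settings, passing in 2. In those settings many genes passed: 819 of 12159 without WT library 3, and 667 of 12817 in 1 fit over all libraries. Pcca read 137, 144, 153 and 143 TPM in the WT libraries of BAT and 125, 115, 134 and 128 TPM in the Mut ones. Pccb read 239.8 to 246 TPM and 197 to 239 TPM. Neither gene's groups overlapped, and the log2 fold changes of -0.20 and -0.16 did not pass (adjusted p = 0.187 and 0.262). Such downward separation was seen in 1.65% of all BAT genes. The E1 subunits did not follow: Bckdha was -0.092 (adjusted p = 0.643) and Bckdhb 0.10 (adjusted p = 0.513).

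Summed macrophage markers were 28.3 to 141 TPM in WT BAT and 139.9 to 194 TPM in Mut BAT, and fibroblast markers 130 to 223 against 276 to 466 TPM. Fast muscle markers were 1226 to 1329 TPM in WT BAT and 1835, 2838, 1935 and 1111 TPM in Mut BAT libraries 1 to 4, with 6 of 6 positive (median log2 fold change 0.49). Red blood cell markers were 2096 to 3864 TPM in WT BAT and 4081 to 6220 TPM in Mut BAT. The macrophage, fibroblast and red blood cell markers were also all positive, 5 of 5, 4 of 4 and 5 of 5. In these 4 lists 0 were called and none was at 0. The part of these cells in the BAT results was not tested beyond the next value. Without the 2 WT libraries lowest in macrophage markers, a setting added after the data were seen, Dbt was -0.38 (adjusted p = 0.197). Bcat1, not one of the 10, read 0.884 to 3.71 TPM in WT BAT and 3.03 to 8.17 TPM in Mut BAT (1.10, adjusted p = 0.153).

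In heart 0 of the 10 passed in limma, against 0.15% of 12019 genes, and 3 had an unadjusted p under 0.05 (Bcat2, Bckdhb and Mccc2), against 11.6%. Bckdhb read 31.2, 36.3, 36.5 and 42.0 TPM in WT heart and 27.5, 22.3, 25.9 and 28.8 TPM in Mut heart. The Mut libraries were all below the WT libraries, as in 7.21% of all heart genes. Its log2 fold change was -0.47 (SE 0.12, 95% interval -0.72 to -0.21, adjusted p = 0.339, range 0.0129 in 1 fit over all libraries to 0.756). All 10 genes had negative values, from -0.073 (Bckdk) to that of Bckdhb, with a median of -0.24 beside -0.11 over all heart genes. Without Mut library 2, which held the highest mitochondrial share, the medians were -0.15 and -0.053, Bckdha was -0.053 in place of -0.19, and Bckdhb was -0.39. With median-ratio scaling Bckdk (0.059) and Pcca (0.022) were positive, and so they were with rescaling. The geometric mean of the 15 mitochondrial reference genes was also lower in Mut heart, at 616 TPM (500 to 685) against 711 TPM (636 to 760) in WT. The fall of the 10 genes was not tested against that of the reference. Markers of heart muscle summed to 18556 to 27482 TPM in Mut against 28221 to 30422 TPM in WT, and atrial markers to 22.6 to 88.8 TPM against 329.7 to 3327 TPM, with 5 of 5 atrial markers called lower and none at 0. Red blood cell markers summed to 3248 to 26213 TPM in Mut against 3088 to 6408 TPM in WT. The part of these differences in the values of the 10 genes was not tested.

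In muscle 0 of the 10 passed in limma, against 0.0085% of 11771 genes, and 0 had an unadjusted p under 0.05, against 7.76%. None of the 10 separated the groups, against 3.83% of all genes with Mut above WT and 0.663% with Mut below. Log2 fold changes ran from -0.38 (Ivd, SE 0.17, adjusted p = 0.641) to -0.017 (Pcca), with a median of -0.13 beside 0.050 over all muscle genes. The mitochondrial reference genes had a geometric mean of 508 TPM in Mut muscle (457 to 605) and 568 TPM in WT muscle (532 to 598). That difference was not tested. Ivd read 49.6, 76.9, 76.6 and 78.3 TPM in WT muscle and 69.9, 51.1, 43.6 and 51.0 TPM in Mut muscle, so WT library 1 lay among the Mut values and Mut library 1 near the other WT values. Summed slow fibre markers were 172 to 1236 TPM in Mut muscle and 927 to 1312 TPM in WT muscle, with 0 of 5 positive, 0 called and none at 0. Macrophage markers were 30.0 to 41.2 TPM in Mut and 21.7 to 27.3 TPM in WT muscle, and fibroblast markers 351 to 408 and 282 to 337 TPM, all positive with 0 called. Without Mut libraries 2 and 3, the lowest in slow fibre markers, a setting added after the data were seen, Ivd was -0.21, Bckdha -0.01 and Dbt 0.013. Of the Mut muscle libraries, these were also the highest in white adipocyte (102 and 76.3 TPM) and fast muscle markers (108968 and 103234 TPM). They had the lowest mitochondrial share as well (22.8% and 23.8%). Which of these traits goes with the change was not tested.

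**Figure D5:**
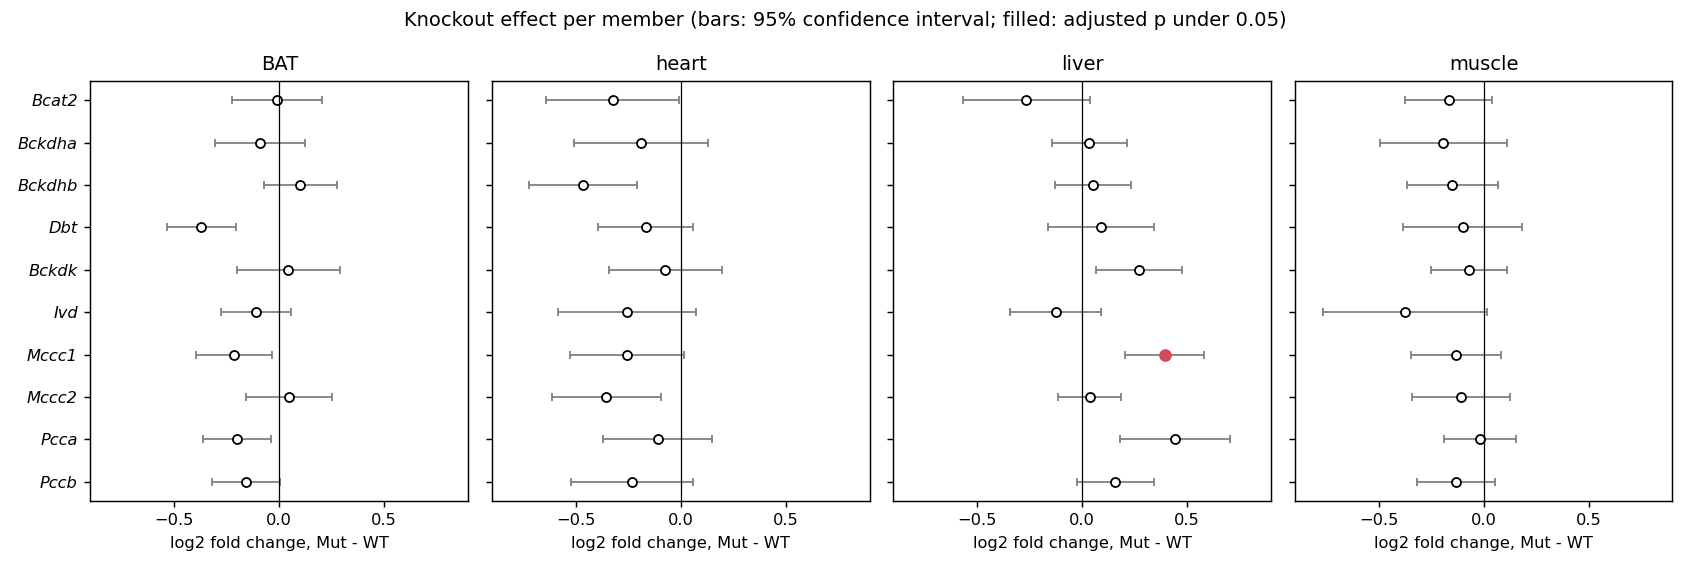
Log2 fold change of Mut against WT for the 10 genes in each tissue (horizontal axis, log2(TPM + 1) scale), with 95% intervals. Mccc1 in liver, at 0.39, is the one value that passed.

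Whether the difference between genotypes depended on tissue was tested in 1 limma model over the 32 libraries. The interaction passed for 3 of the 10 genes, against 5.87% of 10109 genes: Mccc1 (adjusted p = 0.0143), Pcca (adjusted p = 0.0205) and Bckdhb (adjusted p = 0.0271). For Mccc1 the genotype difference was lower in BAT than in liver by a log2 difference of -0.61 (SE 0.14, adjusted p = 0.0148, against 3.07% of genes called) and lower in heart than in liver by -0.65 (adjusted p = 0.00671, against 6.61%). For Pcca the same differences were -0.64 (adjusted p = 0.0108) and -0.55 (adjusted p = 0.0203). For Bckdhb BAT minus heart was 0.57 (adjusted p = 0.0182, against 7.03%) and heart minus liver -0.52 (adjusted p = 0.0213). Mccc1 passed the interaction in all 40 settings (adjusted p = 0.00452 to 0.0369), Pcca in 38 and Bckdhb in 35. Pcca lost it without liver WT library 3 (adjusted p = 0.0531) or liver Mut library 1 (adjusted p = 0.0508). Bckdhb lost it with median-ratio scaling (adjusted p = 0.306), with rescaling (adjusted p = 0.0929), and without heart WT library 2 (adjusted p = 0.0531), heart WT library 4 (adjusted p = 0.0684) or heart Mut library 2 (adjusted p = 0.0543). Of 29 other pathway genes tested, 5 passed: Aldh6a1 (adjusted p = 0.00661), the methylmalonyl-CoA mutase gene Mmut (adjusted p = 0.0136), Acadsb (adjusted p = 0.0237), Dld (adjusted p = 0.0346) and Hibch (adjusted p = 0.0364). Aldh6a1, the semialdehyde dehydrogenase of valine breakdown, averaged 171 ± 7.83 TPM in WT BAT, 128 ± 7.50 TPM in Mut BAT, 223 ± 19.4 TPM in WT liver and 277 ± 12.2 TPM in Mut liver (SD, n = 4). Within single tissues 0 of these other pathway genes were called in limma. Those at an unadjusted p under 0.05 numbered 9 of 31 in BAT (19.5% of all genes) and 3 of 30 in heart (11.6%). In liver they numbered 12 of 29 (25.9%) and in muscle 2 of 30 (7.76%).

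Between genotypes, 0 of 24 ratio tests within the pathway passed (exact permutation, smallest adjusted p = 0.0980), and 7 reached the smallest possible unadjusted p, 0.0286. With that floor no ratio could pass unless many of the 24 reached it, so the lack of calls is not informative. The share of other gene pairs that reach it was not counted. In liver, Mccc1 to Mccc2 averaged 0.596 in the WT and 0.768 in the Mut libraries (log2 difference 0.37), and Pcca to Pccb 0.415 and 0.509 (0.29). In BAT, Mccc1 to Mccc2 averaged 1.27 in WT and 1.06 in Mut libraries (-0.27), Dbt to Bckdha 0.143 and 0.117 (-0.29), and Bckdha to Bckdhb 3.00 and 2.63 (-0.19). In heart, Bckdha to Bckdhb averaged 3.99 in WT and 4.90 in Mut (0.29), and Bcat2 to Bckdha 0.336 and 0.305 (-0.14). The groups did not overlap in any of these 7. The kinase to E1 alpha ratio was not among them: it averaged 0.0558 in WT and 0.0671 in Mut liver, and 1.16 in WT and 1.28 in Mut muscle.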

How the data were processed

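Per the labels' protocols, total RNA extracted with a magnetic bead kit was sequenced from strand-specific Illumina libraries. The authors deposited TPM per transcript, made with Salmon per the submitters' processing notes. The genome build, the transcriptome, and Salmon's version and settings were not given in the sources used here. From this table, 136081 of 147493 transcripts (92.26%) matched GENCODE mouse M21 (GRCm38) and their TPM were summed per gene. The unmatched ones held 0.451% to 0.896% of a library's TPM.

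Groups came from the titles. Tests used log2(TPM + 1) in limma 3.58.1 with a mean-variance trend (R 4.3.3), where the mean TPM of a gene over the fitted libraries was at least 1. Genotypes were compared within each tissue, tissues within each genotype, and the interaction in 1 model over genes at that mean in every tissue. P-values were adjusted by Benjamini-Hochberg over all genes, and an adjusted p under 0.05 was called. A fold change on this scale understates that of low genes. P-values measure the spread between these libraries. Ratios were tested by exact permutation (70 assignments). The 10 genes, the other lists and the tests were chosen with earlier results of these data known. Genes named are the 10 listed ones, partners from the pathway list, and the gene with the highest r to each. The scripts were tested on simulated data. Alternatives were pseudocount 0.1, no filter, rescaling without mitochondrial genes and the top 10 genes, median-ratio scaling, protein-coding transcripts only, limma without trend, a replicate block, 1 fit over all libraries and leaving out each library. Sums over the first-numbered transcript of each gene and the sets of left-out libraries were added after the data were seen. Promoter windows are from RefSeq (GRCm38.p6). Protein sequences were not used here. Tables were made with Python 3.11.15 and pandas 2.3.3.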

Additional observations from a re-analysis of the deposited data

Results flagged for a closer look

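Among the 80 groups of 4 values (10 genes in 8 groups), 4 held a library far from the other 3 by Dixon's gap test at the 95% level, and about 4 of 80 would be so by chance. Bcat2 (29.8 TPM) and Ivd (49.6 TPM) were lowest in the same WT muscle library 1. Bckdha was lowest in Mut heart library 2 (95.2 TPM), the library with the highest mitochondrial share. Mccc1 was highest in Mut muscle library 1 (22.8 TPM). The genotype difference varied between tissues for Mccc1 (interaction adjusted p = 0.0143), Pcca (adjusted p = 0.0205) and Bckdhb (adjusted p = 0.0271) in limma.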

How the results depend on the processing

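Differences between WT tissues of at least 2-fold numbered 22 to 30 over the scalings and other settings and 25 to 27 with 1 library left out. The interaction passed for 2 or 3 of the 10 genes. Among genotype comparisons, the number of genes called was 1 in place of 0 in BAT and in heart, and 2 in place of 1 in liver, with 1 fit over all libraries. That fit also called 5.2% of all genes in BAT, 0.593% in heart and 12.9% in liver. In liver the number was 0 with no filter and with median-ratio scaling. With 1 library left out it was 0 to 1 in BAT and 0 to 1 in liver. Same-numbered libraries had r over 0.1 in 1 of 16 pairs of WT and Mut and in 12 of 48 pairs of tissues within a genotype (median 0.054, highest 0.15), and the labels tie no number to a mouse. Different-numbered libraries were not compared, so these values do not settle whether tissues shared a mouse. Without a pairing in the labels, the numbers were not taken as pairs. With the replicate block the liver count was 0 in place of 1 (Mccc1 adjusted p = 0.0800).

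Uncalled values near 0 changed sign. With median-ratio scaling these were, in BAT, Bckdhb (-0.026), Bckdk (-0.082) and Mccc2 (-0.080), in heart Bckdk (0.059) and Pcca (0.022), and in liver Bckdha (-0.10), Bckdhb (-0.085), Dbt (-0.044) and Mccc2 (-0.099). With rescaling they were Bckdk (-0.021) and Mccc2 (-0.018) in BAT and Bckdk (0.086) and Pcca (0.048) in heart. Rescaling also reversed the WT differences of Dbt (0.57) and Ivd (0.060) for BAT minus liver, of Bckdha (0.49), Mccc2 (0.39) and Pcca (0.50) for heart minus liver, and of Mccc1 (-0.021) for liver minus muscle. The cause was not tested. With the first-numbered transcript of each gene only, Mccc2 in BAT was -0.0057, Pccb for WT heart minus muscle was -0.0041, and Bckdhb in muscle was 1.01, from a transcript near 0 TPM. Without the 2 WT BAT libraries lowest in macrophage markers, Bcat2 was 0.069 and Bckdk -0.15. Without the 2 Mut muscle libraries lowest in slow fibre markers, Dbt was 0.013. With 1 library left out, values crossed 0 for Bcat2 in BAT (-0.071 to 0.043), Bckdk in BAT (-0.030 to 0.12) and heart (-0.17 to 0.016), Bckdha (-0.0043 to 0.064) and Bckdhb (-0.0055 to 0.10) in liver, Pcca in muscle (-0.067 to 0.022), and, between WT tissues, Ivd for heart minus liver (-0.075 to 0.16) and Pccb for heart minus muscle (-0.061 to 0.097). TPM keeps no depth, so precision at low levels is unknown.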
